A study of Mus musculus with 3 samples.

Results

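Of 27654 H3K4me1 peaks with a pileup of at least 12 on chromosomes 1 to 19 of the adipocyte-specific Lonp1 knockout (AKO), 1325 lay more than 1 kb from every peak of the wild-type (WT) list. These 1325 AKO-only peaks are described here. They were chosen by their pileup in AKO and by the absence of a WT peak, so that their height and their lack of a WT partner describe the choice and are not results. The AKO list held 62361 peaks in all and the WT list 72040. Pileup is the number of overlapping sequenced fragments at the summit of a peak, which the authors' peak caller scaled by 0.647 in AKO and 0.635 in WT to the size of the input library, so that a pileup of 12 required 19 fragments.

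H3K4me1 was mapped by chromatin immunoprecipitation and sequencing with antibody ab8895 in adipocytes of male C57BL/6J mice, in 1 WT library and 1 library from mice in which Lonp1 was deleted in adipocytes. A single input library without antibody was the background of both peak calls. Its title names the AKO library and its genotype label says wild type. The driver of the deletion, the fat depot, the age and the number of mice per library are not given in the sources used here. After duplicate removal 15015805 tags were used for WT, 14733950 for AKO and 9537585 for the input. There was 1 library per genotype, and no value below carries a spread between animals or a p-value. Wilson intervals are at the 95% level and cover counting error only.

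Histone H3 monomethylated at lysine 4 marks enhancers, the distal elements that regulate genes from within introns or from between genes. Methyltransferases of the MLL3 and MLL4 kind place the mark ahead of or together with enhancer activation, and lysine demethylases remove it. Active promoters carry mainly the trimethylated form, so monomethylation is usually low right at the start of an active gene and high on its flanks. LONP1 is the Lon protease of the mitochondrial matrix, which degrades damaged and surplus mitochondrial proteins.

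Few AKO-only peaks reached a promoter, and the promoters that they did reach are shown first because sequence was at hand for promoters alone. Of the 1259 AKO-only peaks on the 18 chromosomes for which promoters were at hand, 14 overlapped a RefSeq promoter, defined as 250 bases before to 50 bases after a start site (1.11%, interval 0.664 to 1.86). The same overlap was found for 6.40% of the other AKO peaks of pileup at least 12 and for 9.07% of WT-only peaks, those chosen by the same rule with the libraries exchanged. The 14 peaks touched promoters of 14 genes, 7 of them protein-coding. Below are 4 of the protein-coding ones (RefSeq, GRCm38.p6, 5′ to 3′ on the gene's strand), with the bases covered by the AKO-only peak in capitals. The others, not printed, were Pate1 (21 fragments, 250 bases covered), Ear14 (19 fragments, 225 bases) and Rrp1b (19 fragments, 33 bases). Mitf encodes a transcription factor of melanocytes, osteoclasts and lysosome genes, Cd46 a regulator of complement, and Sun3 a protein of the nuclear envelope of male germ cells.
Mitf, chr6:97929567-97929866, plus strand: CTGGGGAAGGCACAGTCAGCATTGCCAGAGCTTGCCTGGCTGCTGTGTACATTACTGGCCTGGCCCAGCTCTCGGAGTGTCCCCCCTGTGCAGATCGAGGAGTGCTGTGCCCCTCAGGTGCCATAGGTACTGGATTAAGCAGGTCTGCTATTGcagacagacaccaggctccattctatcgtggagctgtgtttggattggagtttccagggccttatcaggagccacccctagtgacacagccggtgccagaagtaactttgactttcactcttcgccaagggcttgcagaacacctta
Cd46, chr1:195092199-195092498, minus strand: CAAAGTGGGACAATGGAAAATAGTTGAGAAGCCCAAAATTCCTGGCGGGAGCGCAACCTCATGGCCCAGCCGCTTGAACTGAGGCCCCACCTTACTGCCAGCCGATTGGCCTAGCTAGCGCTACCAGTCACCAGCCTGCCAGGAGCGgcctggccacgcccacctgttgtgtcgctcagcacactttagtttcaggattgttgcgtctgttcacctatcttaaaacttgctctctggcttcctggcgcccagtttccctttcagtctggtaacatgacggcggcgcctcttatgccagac
Sun3, chr11:9048942-9049241, minus strand: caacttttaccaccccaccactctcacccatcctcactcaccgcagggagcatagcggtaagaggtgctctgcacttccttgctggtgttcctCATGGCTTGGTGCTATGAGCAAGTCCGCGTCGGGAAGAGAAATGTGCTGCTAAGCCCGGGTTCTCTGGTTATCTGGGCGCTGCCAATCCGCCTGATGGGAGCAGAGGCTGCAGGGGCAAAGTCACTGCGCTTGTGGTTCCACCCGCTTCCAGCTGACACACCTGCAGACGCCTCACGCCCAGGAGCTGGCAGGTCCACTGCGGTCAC
R3hdm2, chr10:127420617-127420916, plus strand: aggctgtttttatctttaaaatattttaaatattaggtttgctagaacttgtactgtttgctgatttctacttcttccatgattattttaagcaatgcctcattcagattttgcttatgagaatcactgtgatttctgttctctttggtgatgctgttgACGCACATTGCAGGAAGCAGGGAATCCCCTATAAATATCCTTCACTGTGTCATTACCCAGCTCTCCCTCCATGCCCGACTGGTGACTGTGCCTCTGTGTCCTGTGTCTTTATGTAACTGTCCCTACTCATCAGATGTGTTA

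The peak at the Mitf promoter had 19 fragments and a fold enrichment of 4.43 over the input background, and covered 153 of the 300 bases. At Cd46 the peak had 19 fragments and covered 147 bases. The highest of the 4 was at Sun3, with 24 fragments over 207 bases, but its fold enrichment was 3.67, since the input background there was 3.51 scaled fragments. R3hdm2 had 19 fragments over 141 bases. The midpoints of the Cd46 and R3hdm2 peaks lay inside these genes, more than 1 kb from any gene end. The nearest WT peaks lay 10538 bp from the Mitf peak, 56548 bp from Cd46, 68098 bp from Sun3 and 1656 bp from R3hdm2. The promoters touched by AKO-only peaks had a median GC content of 45.3% and a median of 5 CpG per 300 bases, against 53% and 7 in all promoters of these chromosomes, but only 7 of the 14 genes were protein-coding. The 7 protein-coding promoters alone had medians of 55.7% and 5 CpG, against 57% and 14 in all protein-coding promoters and 61.3% and 17 in those touched by WT-only peaks. A CCAAT box (CCAAT on either strand) was found in Mitf, Cd46 and Sun3 and in 37.3% of all 31396 promoters, and a TATA box (TATAAA on either strand) in R3hdm2 and in 13.6% of all. The AP-1 motif TGANTCA (7.84% of all promoters), the cyclic AMP response element TGACGTCA (1.83%) and the E-box CACGTG (7.14%) were searched on both strands and were in none of the 4.

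The heights of the AKO-only peaks follow from the rule and are given as a description. Of all 27654 AKO peaks of this height or above, 4.79% were AKO-only, against 15.6% WT-only peaks among 40365 WT peaks (6315). The AKO-only peaks had a median of 20 fragments at the summit and a highest value of 31. As many as 501 sat at the minimum of 19 fragments, and 1018 (76.8%) had 21 or fewer. A count of 19 has an exact Poisson 95% interval of 11.4 to 29.7 and a count of 31 one of 21.1 to 44.0. The share of AKO peaks without a WT peak within 1 kb was 11.1% at 19 fragments (501 of 4520), 4.84% at 22, 1.89% at 25 and 0.405% at 31 (2 of 494). At 32 or more fragments it was 0 of 2228, with a Wilson interval of up to 0.172%. WT-only shares at the same counts were 31.1% at 19 fragments, 23.1% at 22, 14.5% at 25 and 4.64% at 31, and 151 WT-only peaks had 32 or more. Just outside the pileup limit, 732 AKO peaks of 18 fragments (pileup 11.65) also had no WT peak within 1 kb, with a median width of 378 bp against 410 bp for the 501 just inside it (pileup 12.3).

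**Figure D1:**
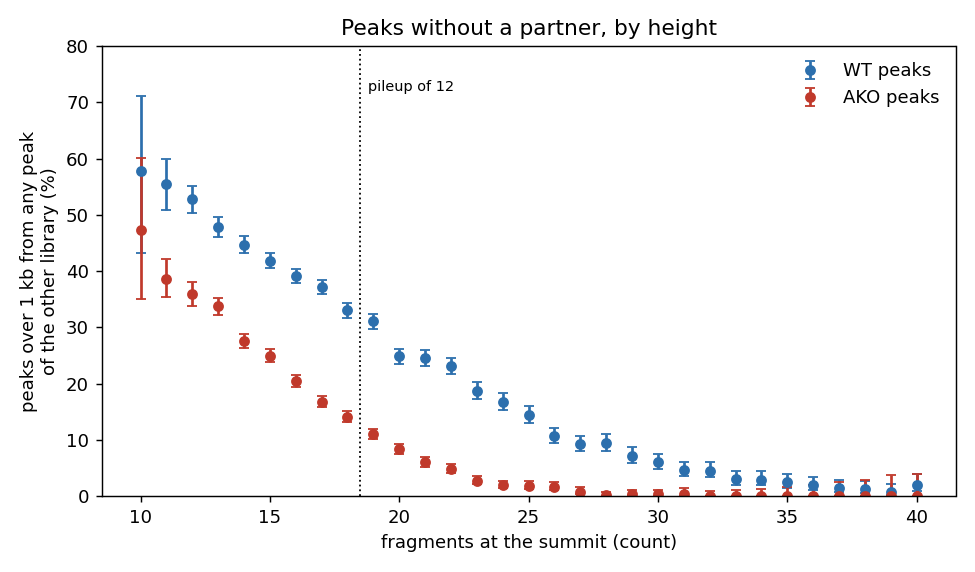
Share of peaks lying more than 1 kb from any peak of the other library (vertical axis, %) by the number of fragments at their summit (horizontal axis), for WT peaks (blue) and AKO peaks (red) on chromosomes 1 to 19; bars are Wilson 95% intervals. The share was 31.1% for WT and 11.1% for AKO peaks of 19 fragments, the lowest count with a pileup of 12 (dotted line), and AKO peaks of 32 or more fragments had none.

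The absence of a WT peak is not the absence of WT signal. The lists give no value where no peak was called, and the lowest called summit held 10 fragments in either library. In WT, 43.7% of the peaks had fewer than 19 fragments. AKO peaks of 19 fragments that did overlap a WT peak had WT partners of 15 fragments at the 5th percentile, 22 at the median and 38 at the 95th. For AKO peaks of 25 to 31 fragments, the partners had 19, 32 and 49. WT signal that missed the calling limit at an AKO-only site is not shown by these lists.

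The AKO-only peaks were narrow for their height. Their median width was 421 bp (order-statistic 95% interval 413 to 435), with a range from 270 bp, the fragment length and the narrowest peak that was called, to 1979 bp. Other AKO peaks with the same numbers of fragments had a median of 647 bp, and WT-only peaks one of 475 bp, each averaged with the AKO-only peaks' counts as weights. Only 37 AKO-only peaks (2.79%) were at least 1000 bp wide, against 21.2% of other AKO peaks and 6.82% of WT-only peaks at equal counts. A wide peak comes within 1 kb of a WT peak more easily, so that a lower width follows in part from the rule. The local background in the input, by which the peak caller divides the pileup, was close between the AKO sets. It was above its genome-wide floor of 1.38 scaled fragments at 55.9% of AKO-only peaks (53.2 to 58.6), and at 57.5% of other AKO peaks and 67.3% of WT-only peaks at equal counts. Median fold enrichment was 5.32 in AKO-only peaks, and 5.41 in other AKO peaks and 4.74 in WT-only peaks at equal counts.

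The distances to other peaks depend in part on the gap that the rule sets, and were nearer to those of the mirrored WT-only peaks than to those of other AKO peaks. The nearest WT peak was at a median distance of 6951 bp. It had medians of 17 to 18 fragments over the distance classes (43.7% of all WT peaks had fewer than 19). It lay 1 to 2 kb away for 234 AKO-only peaks, 2 to 5 kb for 310, 5 to 20 kb for 405, 20 to 100 kb for 301 and more than 100 kb for 75 (5.66%). The mirrored WT-only peaks had 4.02% beyond 100 kb. The gap closest to the limit was 1004 bp inside the rule and 990 bp outside it. AKO peaks left out by the gap alone numbered 958, and the 317 with a gap of 500 to 1000 bp had a median of 20 fragments and 423 bp, close to the 20 fragments and 422 bp of the 145 with a gap of 1000 to 1500 bp. Within the AKO library, 19.7% of AKO-only peaks had another AKO peak within 1 kb and 63.5% within 10 kb, against 54.8% and 85.2% of other AKO peaks at equal counts. WT-only peaks had another WT peak within these distances in 24.8% and 71.5% at equal counts. Another AKO-only peak was within 10 kb for 98 of the 1325.

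AKO-only peaks were seldom at gene ends. They were more often far from genes than other AKO peaks, and about as often as WT-only peaks. By the midpoint of the peak, 34 of 1325 (2.57%, 1.84 to 3.56) lay no more than 1 kb from an end of a protein-coding gene. Other AKO peaks had 10.04% there (8.75% at equal counts) and WT-only peaks 15.7% (13.4% at equal counts). The interior of genes held 65.8% of AKO-only peaks (63.2 to 68.3), 67.5% of other AKO peaks and 50.2% of WT-only peaks. Sites more than 10 kb from any protein-coding gene made up 25.5% (23.2 to 27.9), 15.3% and 24.8%. At equal counts the last 2 shares were 18.2% for other AKO and 25.8% for WT-only peaks. With strand taken from the RefSeq promoters, which covered 79.6% of the protein-coding genes, the median distance to a start site was 47.0 kb for AKO-only, 22.2 kb for other AKO and 23.7 kb for WT-only peaks. Within 1 kb of a start site lay 1.35% of AKO-only, 6.97% of other AKO and 12.6% of WT-only peaks. The peaks inside genes thinned out from start to end. Of 705 such AKO-only peaks, 29.1% were in the first of 5 equal parts of the gene and 11.6% in the last, against 30.3% and 13.5% of other AKO peaks and 37.5% and 15.4% of WT-only peaks.

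**Figure D2:**
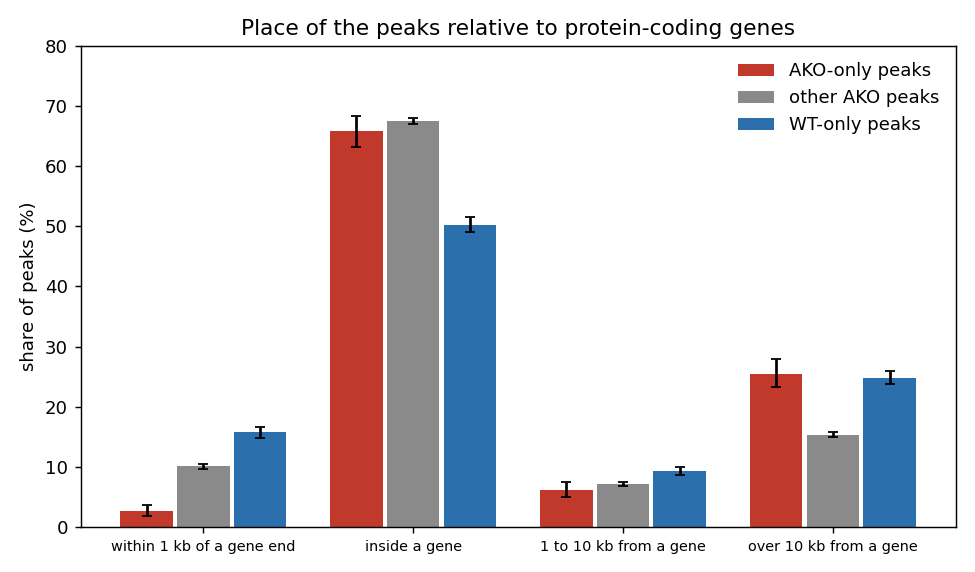
Share of peaks (vertical axis, %) by the place of their midpoint relative to protein-coding genes, for 1325 AKO-only (red), 26329 other AKO (grey) and 6315 WT-only peaks (blue); bars are Wilson 95% intervals. Within 1 kb of a gene end lay 2.57% of AKO-only, 10.04% of other AKO and 15.7% of WT-only peaks.

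Long genes and gene-poor stretches held more of them. Counted in the gene body and 10 kb on either side, 1004 of 20665 protein-coding genes (4.86%) had an AKO-only peak, 879 of them a single one. Their median length was 71.8 kb, against 17.5 kb for all genes, 23.2 kb for genes with any AKO peak of pileup at least 12 and 27.9 kb for the 4494 genes (21.7%) with a WT-only peak. As a share of all AKO peaks of pileup at least 12, AKO-only peaks made up 1.51% at genes under 10 kb (1.23 to 1.85), 2.57% at 10 to 30 kb, 3.95% at 30 to 100 kb, 5.17% at 100 to 300 kb and 8.17% above 300 kb (7.08 to 9.40). WT-only peaks made up between 13.3% and 17.2% of WT peaks in the same classes. A peak in several gene windows counts once in each.

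The number of genes around a peak went with the share in the same way. With fewer than 5 protein-coding genes within 500 kb, 10.8% of AKO peaks were AKO-only (9.72 to 11.9), and with 40 or more genes 1% (0.633 to 1.58). The WT-only shares at these ends were 20.4% and 15.01%. Peak height also differed, with a median of 21 fragments in the sparsest class and 24 in the densest. Among AKO peaks of 19 to 21 fragments alone the AKO-only shares were 16.1% and 1.93%. By chromosome the share ran from 3.45% on chromosome 8 to 8.29% on chromosome 18, with 8.20% on chromosome 13 and 7.49% on chromosome 3. How far gene length, gene density and the spacing of WT peaks each take part was not tested.

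**Figure D3:**
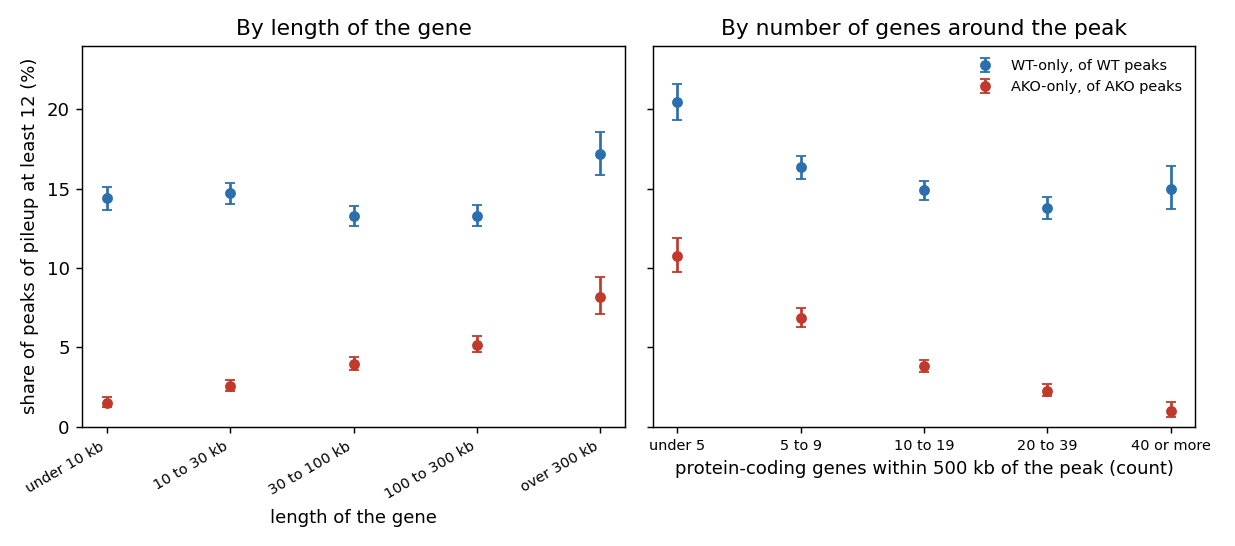
Share of peaks of pileup at least 12 (vertical axis, %) that were AKO-only (red, of AKO peaks) or WT-only (blue, of WT peaks), by the length of the gene whose window holds them (left) and by the number of protein-coding genes within 500 kb (right); bars are Wilson 95% intervals. The AKO-only share was 1.51% at genes under 10 kb and 8.17% at genes over 300 kb, and 10.8% with fewer than 5 genes around and 1% with 40 or more.

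Of the AKO-only peaks, 18 had 27 to 31 fragments, and 12 of these lay inside a gene. The 15 named below include 6 of the 9 with 27 fragments, taken by their fold enrichment. Positions are those of the authors' list on mm10, and fold enrichment and −log10 q are the authors' values for each peak. The highest count, 31 fragments, was reached inside Smg6, an endonuclease of nonsense-mediated mRNA decay, at chromosome 11, 75073851 to 75074835, with a fold enrichment of 6.67 and the nearest WT peak 17.8 kb away with 14 fragments. The other peak of 31 fragments (chromosome 19, 56705292 to 56705632) lay 16.7 kb from Adrb1, the beta-1 adrenergic receptor gene. Its fold enrichment was 4.21, on an input background of 4.001, and a WT peak of 28 fragments lay 1.35 kb away. Inside Calu, the gene of the secretory-pathway protein calumenin, a peak of 30 fragments had the highest −log10 q of all AKO-only peaks, 12.2. The gene window of Calu held no other AKO peak and 2 WT peaks, neither of which reached a pileup of 12.

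Among the next peaks, one of 30 fragments lay 213 kb from Shox2, a homeobox gene, at chromosome 3, 66758431 to 66759057, with no WT peak for 105 kb. One of 29 fragments lay in Col5a1, a chain of collagen V, but a WT peak of 49 fragments and 8178 bp began 1.62 kb away. Plxna2, a semaphorin receptor, held one of 28 fragments 1.16 kb from a WT peak of 17. Dock4, an activator of Rac and Rap GTPases, held one of 27 fragments at chromosome 12, 40788212 to 40788597, where the nearest WT peak, 13.3 kb away, had 13 fragments. A second AKO-only peak of 19 fragments lay 0.416 kb from it. Pknox2, a homeobox gene of the TALE class, held one of 27 fragments although its window had 6 WT-only peaks and more peak length in WT (31.9 kb) than in AKO (19.3 kb). The others of the highest 15 had 27 to 29 fragments and lay inside Slc45a4, Fam168b, Susd6 and Laptm4a, 9.89 kb from D930020B18Rik, 207 kb from Aebp2 and 58.4 kb from Lyzl1.

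The widest AKO-only peaks were mostly low ones. The widest, 1979 bp with 19 fragments, lay inside Golga3, which encodes a Golgi protein (chromosome 5, 110178603 to 110180581). The next lay inside Kat2b, a histone acetyltransferase gene (1539 bp, 24 fragments), inside Taf3, a subunit of the general transcription factor TFIID (1535 bp, 19 fragments), 164 kb from Il3ra (1504 bp, 20 fragments), and inside the integrin gene Itgb6 (1456 bp, 19 fragments). Farthest from any WT peak was one of 19 fragments on chromosome 1, at 1042 kb from the nearest, 397 kb from Cdh19, in a stretch of 2.43 Mb with no WT peak and 3 AKO peaks. The next 2 lay together inside Wls, the gene of Wntless, which carries Wnt proteins to the cell surface, 1.77 kb apart at chromosome 3, 159882581 to 159882977 and 159884745 to 159885121. Each had 23 fragments. The Wls window held 3 AKO peaks and no WT peak, and the last WT peak of chromosome 3 lay 847 kb before them.

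Gene ends held 34 AKO-only peaks. The highest had 26 fragments and lay at Tmem265. The Sun3 peak printed above followed with 24. Wdr82, a subunit of the SET1 complexes that methylate lysine 4 of histone H3, had one of 23 fragments 0.758 kb from its end, with a WT peak of 37 fragments 11.2 kb away. Aptx, a DNA repair gene, had one of 22 fragments with a fold enrichment of 3.05. Of 8 peaks of 21 fragments, those with the highest fold enrichment were at Hdac4, a histone deacetylase, at Mrpl41, a mitochondrial ribosomal protein, and at Fv1, Nckap5l and Sertad3. One of 23 fragments was at 2610044O15Rik8. None of these 10 reached 27 fragments.

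At least 3 AKO-only peaks were found at 24 genes, with a median length of 273 kb (51.2 to 915 kb), of which 1 had no WT peak. Those with 4 or more numbered 7 and are all named here. Of the 17 with 3, those named are the 3 with most AKO peaks of pileup at least 12, so that they are heavily marked genes by this choice. Maml2, a coactivator of Notch receptors (chromosome 9, 13296561 to 13709533), had 6, more than any other gene. They had 19 to 22 fragments and lay in the stretch from 129 to 195 kb from the lower end of the gene, with nearest WT peaks 2.72 to 13.8 kb away. The Maml2 window held 47 WT and 66 AKO peaks, covering 24.2 kb and 35.7 kb, and 1 WT-only peak. Ebf1, a transcription factor of adipocytes and B cells, had 5 AKO-only and 3 WT-only peaks among 60 AKO and 53 WT peaks. Egfr, the receptor of epidermal growth factor, had 3 AKO-only and no WT-only peak, with 45 AKO peaks covering 30.05 kb and 31 WT peaks covering 17.8 kb. Adamts12, a secreted metalloprotease gene, had 4 AKO-only and no WT-only peak (16.9 kb in AKO and 8.98 kb in WT), and Cdk14, a cyclin-dependent kinase gene, 4 and 2 (14.4 and 8.11 kb). Rbfox2, a splicing regulator (4 and 2), Marchf3, a ubiquitin ligase (4 and 2), Tcf4, a basic helix-loop-helix factor (4 and 3), Asap1, an Arf GTPase-activating protein (3 and 0), and Lpp, a focal adhesion protein (3 and 2), were the others named. Tcf4 and Asap1 had less peak length in AKO than in WT in spite of their AKO-only peaks (8.65 against 10.3 kb and 35.7 against 36.6 kb).

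**Figure D4:**
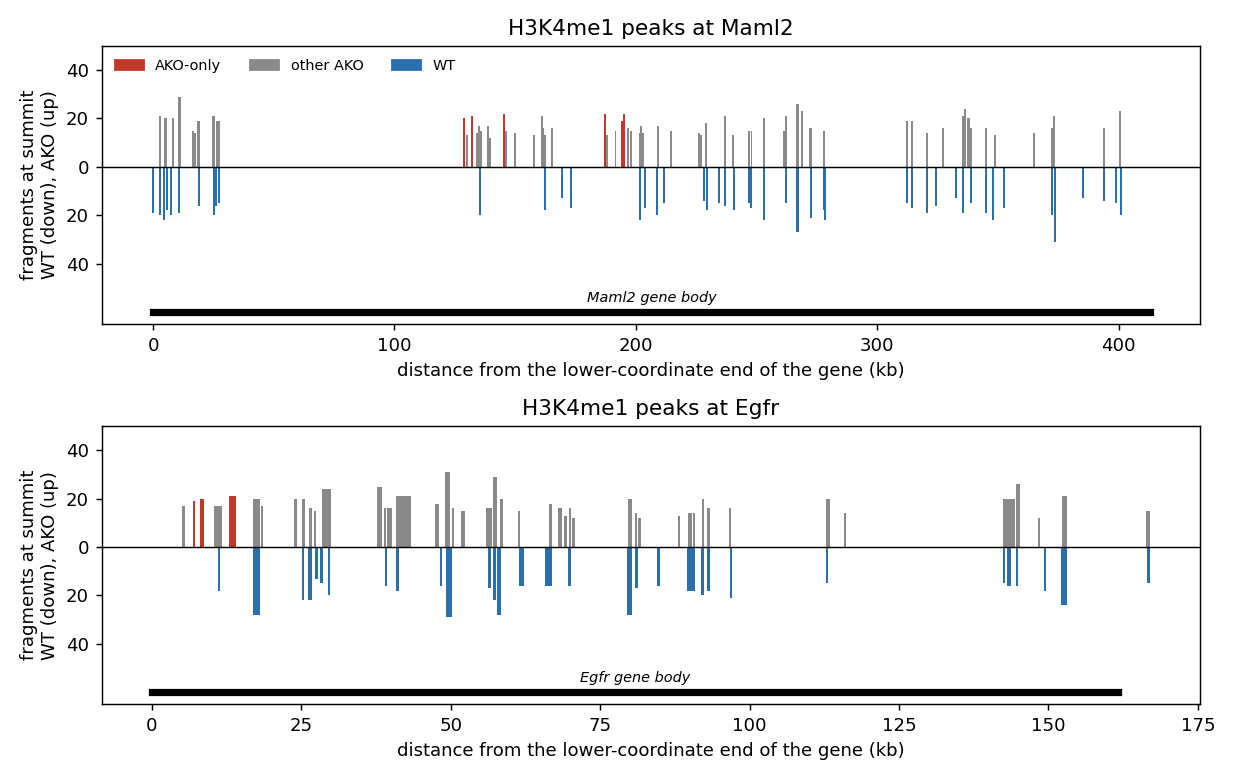
H3K4me1 peaks at Maml2 (top) and Egfr (bottom) by distance from the lower-coordinate end of the gene (horizontal axis, kb), with the fragments at each summit upward for AKO and downward for WT (vertical axis); AKO-only peaks are red, other AKO peaks grey and WT peaks blue, bars have the width of the peak or a minimum drawn width, and the black line is the gene body. The 6 AKO-only peaks of Maml2 lie between 129 and 195 kb and the 3 of Egfr between 7.05 and 13.5 kb, all with 19 to 22 fragments.

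Over all 1004 genes with an AKO-only peak, covered length was higher in AKO at 568 (56.6%), and the summed AKO to WT ratio was 0.951. Over the 9907 genes with any AKO peak of pileup at least 12 it was higher in AKO at 18.1%, with a ratio of 0.737. The rule selects AKO peaks and against WT peaks, so that a higher ratio follows in part from the choice. A WT-only peak was also present at 359 of the 1004 genes, 35.8% of them and 7.99% of the 4494 genes with a WT-only peak. At 121 of the 1004 (12.1%) the window held no WT peak at all. The mirrored count was 683 of 4494 (15.2%). Of the 683 genes, 111 had 3 or more WT peaks. Of the 121, 18 had 3 or more AKO peaks. Chosen after their values were seen, they included Ubtd2 (summits of 20, 21, 12 and 19 fragments), Cab39, a partner of the kinase LKB1 (16, 20, 19 and 13), Siae (13, 15, 24 and 20), the RNA helicase gene Dhx15 (19, 20 and 14), the cytokine gene Il33 (15, 21 and 12) and Vegfc, a growth factor of lymphatic vessels (14, 19 and 14).

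The thermogenic genes held AKO-only peaks at a share near that of all genes. The window of 2 of the 45 genes of this list on chromosomes 1 to 19 held one (4.44%), against 4.86% of all protein-coding genes. At the same gene lengths, that is summing for each gene the share of all genes of its length class with such a peak, the number was 2.77. With a pileup of at least 10 in the rule the count was 9 of 45, against 2533 of the 20665 genes. Ebf2, which marks precursors of brown adipocytes, had one of 19 fragments (chromosome 14, 67258676 to 67259029) 1.81 kb from a WT peak of 20, among 10 AKO and 19 WT peaks. Atp2a2, which encodes the calcium pump SERCA2 used in calcium cycling, had one of 23 fragments (chromosome 5, 122496919 to 122497360), among 3 AKO and 6 WT peaks. A WT-only peak was present at 14 of the 45 (31.1%), against 21.7% of all protein-coding genes. No number at the same gene lengths was made for WT-only peaks. On the list for adipocyte identity and lipid storage, 16 of 40 genes had a WT-only peak (40%), against 21.7% of all protein-coding genes. An AKO-only peak was present at 2 of the 40 (5%), against 4.86% of all protein-coding genes, and the number at the same gene lengths was 2.004. These 2 were Ebf1 and Insr, the insulin receptor gene, with one of 20 fragments 2.85 kb from a WT peak of 14. All 8 adipocyte markers looked up to check the cell type (Adipoq, Fabp4, Plin1, Cidec, Pparg, Lipe, Plin4 and Lep) had peaks in both libraries, and none had an AKO-only peak. Markers of other cells had peaks too, so that peaks at markers do not tell the cell type. In each library they were present at 6 of 6 fibroblast and progenitor, 5 of 6 skeletal muscle and 4 of 6 epithelial markers. Of 6 neural markers, 4 had a WT and 3 an AKO peak.

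The lists for mitochondria, histone methylation and adrenergic signalling had AKO-only peaks at 1 to 3 genes each, against 4.86% of all genes. At the same gene lengths the numbers were 1.31 for mitochondrial stress, 1.09 for the TCA cycle, 1.98 for histone methylation and 4.62 for adrenergic signalling. Lonp1 itself had none, and 1 WT-only peak among 8 WT and 7 AKO peaks. Of 34 genes of mitochondrial stress and proteases, Trap1, a mitochondrial chaperone of the HSP90 family, was the one with an AKO-only peak (23 fragments, fold enrichment 6.46, 1.74 kb from a WT peak of 16). A WT-only peak was present at 9 of the 34 (26.5%), against 21.7% of all genes. In the list of the TCA cycle and alpha-ketoglutarate, 2 of 28 had one, Got2 and Mdh1, both enzymes of the malate-aspartate shuttle, with 21 fragments each. The Got2 peak lay 1.59 kb from a WT peak of 23 fragments and the Mdh1 peak 11.8 kb from one of 18. Kdm5a, a demethylase of lysine 4 of histone H3, was 1 of 27 in its list, with 21 fragments and the nearest WT peak 57.5 kb away. Of 35 genes of adrenergic and cyclic nucleotide signalling, 3 phosphodiesterase genes had them, Pde4b (2, of 20 and 22 fragments), Pde4d (2, of 23 and 24) and Pde10a (1, of 21). None of the list's adrenergic receptors or adenylyl cyclases had one in the gene body or 10 kb on either side. With 50 kb on either side the count of this list was 9, against 1875 of the 20665 genes. With a pileup of at least 10 it was 12, against 2533. WT-only peaks were present at 7 of the 28 TCA cycle genes (25%), 9 of the 27 histone methylation genes (33.3%) and 14 of these 35 (40%).

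The adhesion and guidance genes were long, with a median of 454 kb. Of the 42 on this list 10 had an AKO-only peak (23.8%), near the 8.27 at the same gene lengths, against 4.86% of all genes. A WT-only peak was present at 17 (40.5%), against 21.7% of all genes. Of their 149 AKO peaks of pileup at least 12, 10.7% were AKO-only (6.72 to 16.7), against 4.79% over the genome and 8.17% at all genes over 300 kb. The highest of these were Plxna2 (2, up to 28 fragments), the receptor phosphatase gene Ptprg (2, up to 26), Cdh2, encoding N-cadherin (2, up to 25), and Sema6d, a semaphorin (2, up to 22). The 29 neural and glial genes, with a median length of 424 kb, had 3 (4.77 at the same lengths), Ncam1, Gria1 and Dscam. Of these 29, 10 had a WT-only peak (34.5%).

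The progenitor, matrix, TGF-beta and Wnt lists had AKO-only peaks at 5 to 7 genes each. Of 32 progenitor and fibroblast genes 7 had an AKO-only peak (2.62 at the same gene lengths), and 5.47% of their AKO peaks were AKO-only (3.08 to 9.53). A WT-only peak was present at 19 of the 32 (59.4%), against 21.7% of all genes. Egfr had 3, Nfia, a nuclear factor I gene, 2 of up to 25 fragments, Meis1, a homeobox gene, 2 of 19, and Zfp423, a regulator of preadipocytes, 1 of 23 that lay 1.52 kb from a WT peak of 45. Among 34 matrix genes the count was 5 (3.21 at the same lengths). Fbn1, encoding fibrillin, had 3 of up to 25 fragments, Col5a1 1 of 29, and Col12a1 and Tnc 1 each. Of 32 genes of TGF-beta and BMP signalling 5 had one (2.48 at the same lengths). The receptor gene Bmpr1a had one of 24 fragments, 35.2 kb from a WT peak. Its window held 9 AKO peaks and 1 WT peak, which was itself WT-only. In the receptor gene Acvr1 one of 23 fragments lay 2.15 kb from a WT peak of 29. Those of Skil, a repressor of SMAD proteins, and Smad3 lay 5.53 kb from a WT peak of 18 and 4.24 kb from one of 50. The Wnt and YAP list had 5 of 40 (3.39 at the same lengths), led by Vgll3, a cofactor of TEAD proteins, with 3 of 19, 19 and 22 fragments, among 7 AKO and 3 WT peaks. Vgll4, Wnt2 and Wnt5b had 1 each. Of the AKO peaks of pileup at least 12, 3.87% in the matrix list, 2.72% in the TGF-beta list and 2.77% in the Wnt list were AKO-only, against 4.79% over the genome. WT-only peaks were present at 12 of the 34 matrix genes (35.3%), 15 of the 32 TGF-beta genes (46.9%) and 19 of the 40 Wnt genes (47.5%).

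For the lists of immune and endothelial cells the counts were 0. No gene of the macrophage (26 genes), lymphocyte (22) or endothelial lists (21) had an AKO-only peak, against 1.24, 0.786 and 1.59 at the same gene lengths. WT-only peaks were present at 5, 5 and 8 of them (19.2%, 22.7% and 38.1%), against 21.7% of all genes. AKO peaks of pileup at least 12 were few at these genes, 14, 19 and 53, so that the Wilson intervals of 0 reach 21.5%, 16.8% and 6.76%. Of the defining markers, all 6 endothelial ones had peaks in both libraries (34 WT and 19 AKO peaks). Among the 6 macrophage markers 3 had a WT and 2 an AKO peak, with Mrc1, Lyz2 and Adgre1 at 0 in both libraries. Among the 6 lymphocyte markers 3 had peaks in each library, with Ptprc, Cd8a and Cd3e at 0 in both. The part of such cells in the peak lists was not tested. One AKO-only peak each was found in the inflammatory (Map3k8, of 32), skeletal muscle (Ttn, of 22) and housekeeping lists (Tbp, of 29), against 0.825, 1.12 and 0.709 genes at the same gene lengths. The Ttn peak, of 19 fragments, was the single peak of either library in that window. In each of these lists the median number of AKO-only peaks per gene was 0, as over all genes, and the part that gene length plays in these counts was not tested beyond the values at the same lengths.

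**Figure D5:**
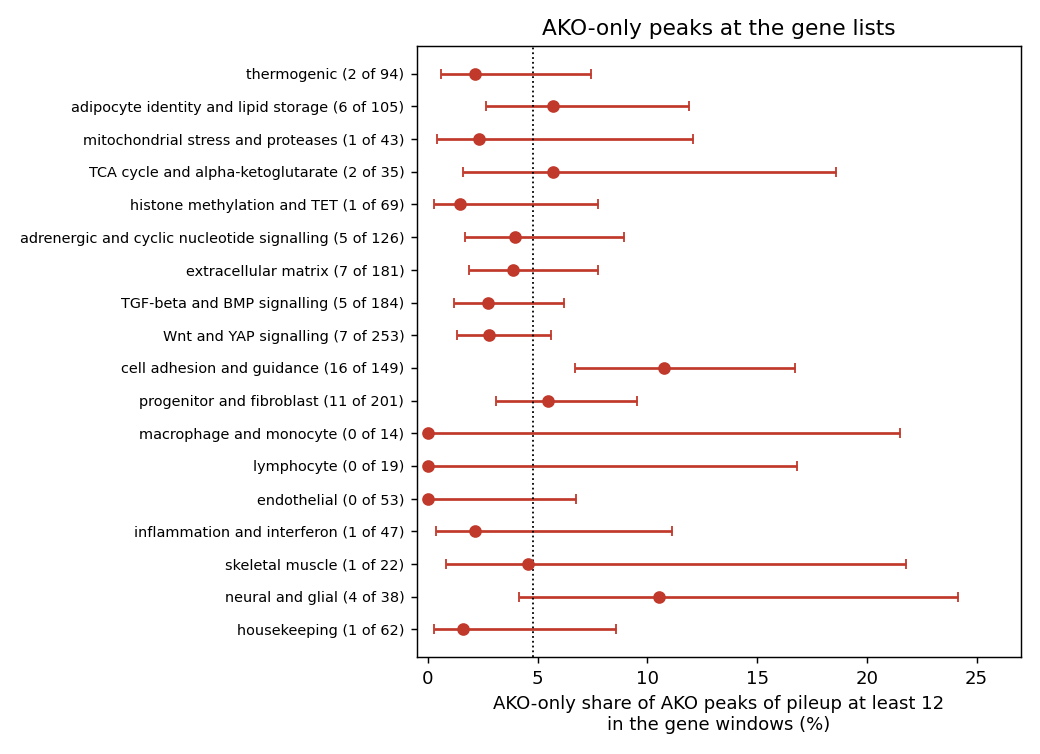
AKO-only share of the AKO peaks of pileup at least 12 (horizontal axis, %) in the windows of the genes of each list described, with the counts in brackets and Wilson 95% intervals; the dotted line is the share over the genome, 4.79%. Cell adhesion and guidance has the highest share, 10.7%, and the macrophage, lymphocyte and endothelial lists have 0 of 14, 0 of 19 and 0 of 53.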

How the data were processed

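The submitters' processing notes name mm10, the aligner Bowtie2 2.2.5, MACS2 2.2.1 and, for the reads, FastQC 0.11.3 and bcl2fastq, and the file headers give MACS 2.1.1.20160309. Per the file headers, narrow peaks were called for each library against the same input at a q-value cutoff of 0.05 with duplicate tags removed. The authors deposited for each peak the pileup signal, −log10 q and −log10 p, and the fold enrichment, a ratio to local background. Narrow mode splits broad domains into several peaks.

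Pileup divided by the library's scale factor gave whole fragments (tags extended to the fragment length of 272 bp in WT and 270 bp in AKO) within 0.02. Local background was computed from pileup and fold enrichment. Values at equal counts average the value per number of fragments with the AKO-only peaks' counts as weights. Genes at the same lengths are the sum over a list of the share of all genes of that length class with an AKO-only peak. Genes came from RefSeq GRCm38.p6 (mm10), with windows of 10 kb on both sides, and all list genes matched by symbol. Scripts ran in Python 3.11.15 with scipy 1.17.1, numpy 2.4.6 and pandas 2.3.3, and peak matching was tested on simulated data. Shares carry Wilson intervals. No test between genotypes was possible. Named regions were the 15 highest, 5 widest, 3 farthest from WT peaks and 10 highest at gene ends, and named genes the 10 with most AKO-only peaks, with ties taken by the number of AKO peaks of pileup at least 12, all such genes of the thermogenic, adipocyte and mitochondrial stress lists and up to 4 of other lists. Other genes were named after their values were seen. The rule and the 19 lists were chosen with earlier results of these data known, and 1 list is not reported here. Alternatives changed the pileup, peak threshold, gap, gene window and gene types.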

Additional observations from a re-analysis of the deposited data

Results flagged for a closer look

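On chromosome X, which lies outside the rule, 4 AKO peaks of 37 with a pileup of at least 12 were more than 1 kb from any WT peak. They are signal in data that no comparison above uses. The mirrored WT count was 77 of 148. On chromosomes 1 to 19 the AKO-only share was 4.79% and the WT-only share 15.6%. Chromosome X held 161 AKO and 390 WT peaks of any height. The cause of this difference was not tested.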

How the results depend on the processing

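The number of AKO-only peaks, 1325, follows the limits of the rule. It was 4210 with a pileup of at least 10 and 107 with one of at least 15, 814 with −log10 q of at least 5, 2283 without overlap of a WT peak and 781 over 5 kb from any. The genes with one numbered 2533, 103, 659, 1638 and 552 in these settings, and 1875 with 50 kb around genes. The share within 1 kb of a gene end stayed between 1.87% and 3.18% in all peak settings and was 5.74% with genes of any biotype. With those genes 70.0% were inside a gene and 15.6% over 10 kb from one. The share inside a gene was 62.6% with a pileup of at least 10, 73.8% with one of at least 15 and 59.5% over 5 kb from WT peaks. The share over 10 kb from a gene was 18.7% with a pileup of at least 15, 23.0% without overlap and 31.1% over 5 kb from WT peaks. Median width was 387 bp and 499 bp, and median fold enrichment 4.78 and 5.72, with a pileup of at least 10 and of at least 15. At sites with input background at the floor, chosen after seeing the data, median width was 442 bp. In each of the 6 peak settings, recomputed for these shares after seeing the data, the AKO-only share was higher at genes over 300 kb than under 10 kb, and higher with under 5 than with 40 or more genes around, from 1.58% against 0.263% and 2.35% against 0.324% (pileup of at least 15) to 14.5% against 3.48% and 19.3% against 2.66% (pileup of at least 10). Counts per list are small, and 62 of 152 moved by more than 1.5 times. The thermogenic count of 2 was 9 with a pileup of at least 10, and the lymphocyte and endothelial counts of 0 were then 1 each, with 2 endothelial genes at 50 kb around genes. The cause of these shifts was not tested beyond the construction of each setting. Depth limits single sites, since most rest on 19 to 21 fragments in 1 library. No paired analysis was possible because there was 1 library per genotype and the results come from no test.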
